A study of Mus musculus with 4 samples.

Results

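A set of 10 genes of the endoplasmic reticulum (ER) stress response and of the integrated stress response was followed in mouse tumors, namely Hspa5, Pdia4, Herpud1, Xbp1, Atf4, Ddit3, Trib3, Chac1, Asns and Ddit4. They were taken by gene symbol from the 32285 genes of the count tables, so that 10 of 32285 genes are described. Ddit3 is listed in 2 overlapping rows of the annotation, 1 of which held 0 UMIs in all libraries, and the row with UMIs was used. Because the 2 rows overlap, reads assigned to both may be missing from the Ddit3 counts. All other members had 1 row each.

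The data are 4 single-cell RNA-seq libraries (10x Genomics, 3′ chemistry) of tumors grown in Swiss albino mice after cells of Dalton's lymphoma ascites (DLA) were injected intraperitoneally. Groups of 2 libraries each were compared. Control 1 and Control 2 came from mice without SP11. Their labels say untreated, whereas a supplementary figure legend of the study speaks of vehicle controls. SP11 1 and SP11 2 came from mice given SP11, a small-molecule inhibitor of the chaperone HSP90, by mouth at 30 mg/kg for 17 days. The DLA cells are a transplanted line in all 4 libraries, and no genetic change distinguishes the groups. The number of animals behind each library is not given in the sources used here, so p-values measure the spread between these libraries only.

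In the ER, the chaperone BiP, the product of Hspa5, holds the stress sensors IRE1, PERK and ATF6 in an inactive state until unfolded protein draws it away. IRE1 then splices the Xbp1 mRNA, ATF6 is cut to an active transcription factor, and PERK phosphorylates the translation factor eIF2. The same eIF2 step is reached by kinases that sense amino acid shortage, heme shortage and double-stranded RNA, and it favors translation of Atf4, whose product induces Ddit3, Trib3, Chac1 and Asns. Abundance of mRNA is counted here, and neither Xbp1 splicing nor eIF2 phosphorylation is visible in such counts.

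Tumor cells were taken as barcodes with at least 5 UMIs of Krt8 plus Krt18, the keratins of simple epithelia. The labels call the cells lymphoma. In the tumor cells of the controls, 6 defining B cell markers summed to 1.04 and 1.48 CPM (UMIs scaled to a total of 1000000 per sum) and 6 defining T cell markers to 1.55 and 0.211, while Krt8 and Krt18 stood at 4723 and 2429 CPM. The cells are therefore named by the keratin gate and not by lineage. The gate held 845 and 528 cells in the controls and 1256 and 582 in the SP11 libraries, with a median of 10935, 17214, 8892 and 19843 UMIs per cell. Their summed depth was between 9477943 and 12287495 UMIs per library. Immune classes were gated by marker UMIs among barcodes below the keratin limit. The monocyte and macrophage gate held 34, 21, 206 and 130 cells in Control 1, Control 2, SP11 1 and SP11 2, and the B cell gate held 1, 0, 156 and 148. Pairs of libraries shared 60 to 359 cell barcodes, and the median correlation of cells with the same barcode (0.417 to 0.767) exceeded that of a cell with the next barcode (0.446 to 0.758) in 1 of 6 pairs. In SP11 libraries the tumor sums also held more transcripts of other cells. The 5 erythroid markers reached 10615 and 4740 CPM against 267 and 178 in the controls, and the B cell markers reached 111 and 57.8.

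Promoters of ER stress genes are known to be bound through short elements, and 4 members with a match are shown because they carry the ER stress elements, the C/EBP-ATF element of the amino acid response, or both kinds. RefSeq windows of the GRCm38.p6 build, 250 bases before to 50 after each start, were found for 10 of 10 members and searched on both strands. The ER stress element (ERSE, CCAAT, then 9 bases, then CCACG) was in the window of Hspa5 only and in 0.119% of all 32851 windows. Its variant ERSE-II (ATTGG, 1 base, CCACG) was in Herpud1 only and in 0.0365% of all windows. The core of the XBP1 and ATF6 element, TGACGTG, was in Hspa5 only and in 2.01% of windows. The C/EBP-ATF element, TGATGNAA, which ATF4 dimers bind, was in Herpud1, Trib3, Chac1 and Asns and in 3.97% of windows. No 2 of these matches overlapped. The windows of Pdia4, Xbp1, Atf4, Ddit3 and Ddit4 held none of these letters. The upstream 250 bases of 4 members are given 5′ to 3′ on the coding strand with matches in capitals. The Trib3 match began at base 265 of its window, after the start, and is not printed.

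The Hspa5 stretch lies at chr2:34771840-34772089 on the plus strand, with TGACGTG from base 94 and ERSE from base 186. The Herpud1 stretch lies at chr8:94386179-94386428 on the plus strand, with the C/EBP-ATF element on the opposite strand from base 139 and ERSE-II from base 199. The Chac1 stretch lies at chr2:119350992-119351241 on the plus strand, with the C/EBP-ATF element on the opposite strand from base 58. The Asns stretch lies at chr6:7693210-7693459 on the minus strand, with the C/EBP-ATF element from base 228.
Hspa5: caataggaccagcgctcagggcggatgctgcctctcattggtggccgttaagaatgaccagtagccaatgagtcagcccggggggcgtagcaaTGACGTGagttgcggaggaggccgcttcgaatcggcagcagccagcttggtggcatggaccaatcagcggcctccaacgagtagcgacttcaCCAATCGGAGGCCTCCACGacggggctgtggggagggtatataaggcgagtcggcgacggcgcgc
Herpud1: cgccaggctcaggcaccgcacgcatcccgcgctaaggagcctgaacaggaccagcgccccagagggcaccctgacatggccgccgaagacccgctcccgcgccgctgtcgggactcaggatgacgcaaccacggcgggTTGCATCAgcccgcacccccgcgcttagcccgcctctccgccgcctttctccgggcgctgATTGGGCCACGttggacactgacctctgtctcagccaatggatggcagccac
Chac1: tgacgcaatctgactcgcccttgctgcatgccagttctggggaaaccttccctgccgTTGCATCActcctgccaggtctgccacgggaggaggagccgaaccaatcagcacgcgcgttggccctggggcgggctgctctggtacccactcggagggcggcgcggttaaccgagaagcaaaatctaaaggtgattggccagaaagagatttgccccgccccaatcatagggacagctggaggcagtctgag
Asns: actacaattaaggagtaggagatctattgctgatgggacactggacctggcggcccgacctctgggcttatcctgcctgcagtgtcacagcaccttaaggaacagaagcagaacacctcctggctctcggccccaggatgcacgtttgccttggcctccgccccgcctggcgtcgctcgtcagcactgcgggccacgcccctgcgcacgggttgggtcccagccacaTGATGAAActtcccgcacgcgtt

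In tumor cells, none of the 10 members differed between SP11 and control libraries beyond the spread between replicates. UMIs were summed per library and tested with edgeR (quasi-likelihood test, Benjamini-Hochberg adjustment over 11588 genes). All 10 members were tested and 0 passed an adjusted p of 0.05, where 2.31% of all genes did. DESeq2 also called 0 of them, and 0 had an unadjusted p under 0.05 in edgeR. The median log2 fold change of the members was -0.02, with a range from -0.22 to 0.24, and that of all genes tested was -0.004. Levels are CPM of the tumor cell sum, in the order Control 1, Control 2, SP11 1 and SP11 2. Levels of all genes tested did not overlap between the 2 groups in 44.9% of cases, so a lack of overlap alone is common here.

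**Figure D1:**
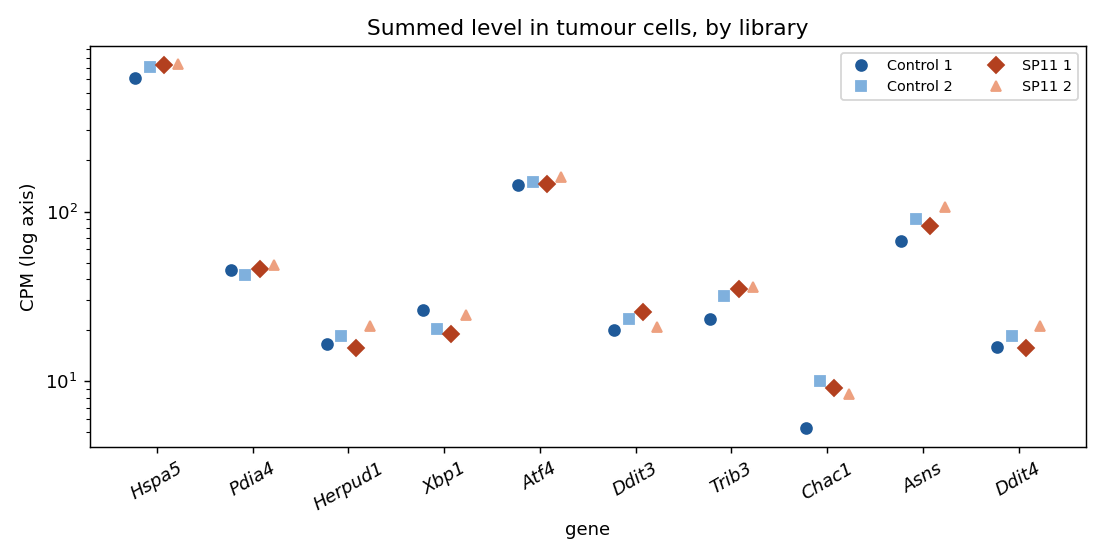
Level of each member in the tumor cells of each library, in CPM on a log axis, with 1 point per library and the libraries told apart by color and shape. The groups overlap for all members but Hspa5, Pdia4 and Trib3, and Control 1 is lowest for Hspa5, Atf4, Ddit3, Trib3, Chac1 and Asns.

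Among the ER chaperones and folding enzymes, Hspa5 (chromosome 2, 34771970 to 34777547, GRCm38) stood at 614, 712, 732 and 738 CPM. The groups did not overlap, but Control 2 lay closer to the SP11 libraries than to Control 1. The fitted log2 fold change was 0.02 ± 0.14 (SE, n = 2 per group, edgeR adjusted p = 0.956). Pdia4, a disulfide isomerase of the ER (chromosome 6, 47796141 to 47813430), stood at 45.4, 42.4, 45.7 and 48.4, with a log2 fold change after TMM scaling of -0.03 ± 0.13 (adjusted p = 0.946, edgeR). Its levels in the SP11 libraries were both above the controls, by less than the difference between the 2 controls in the case of SP11 1. Herpud1, a membrane protein of ER-associated degradation (chromosome 8, 94386438 to 94395377), stood at 16.7, 18.5, 15.7 and 21.2, with SP11 1 lowest and SP11 2 highest.

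Of the transcription factors, Xbp1 (chromosome 11, 5520659 to 5525893) stood at 26.2, 20.3, 19.1 and 24.6 CPM. The groups overlapped, and the log2 fold change of -0.22 ± 0.16 did not pass (edgeR adjusted p = 0.559). With 1 library left out it ranged from -0.41 to -0.001. Atf4 (chromosome 15, 80255184 to 80257541) stood at 143, 149, 145 and 159, with overlapping groups, a log2 fold change of -0.07 ± 0.12 and an adjusted p of 0.834 in edgeR. Ddit3, which encodes the pro-apoptotic factor CHOP (chromosome 10, 127290774 to 127296288), stood at 20.01, 23.21, 25.72 and 20.77, again with overlapping groups.

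Among the ATF4 targets, Trib3, a pseudokinase that restrains ATF4 and AKT (chromosome 2, 152337422 to 152344032), had the lowest adjusted p of the members, 0.490 in edgeR. Its levels were 23.3, 31.9, 34.9 and 35.9, so that both SP11 libraries lay above both controls, while the controls differed from each other by more than Control 2 differed from SP11 2. The log2 fold change was 0.24 ± 0.15, with a 95% interval from -0.05 to 0.53, and ranged from 0.05 to 0.45 with 1 library left out. Asns, asparagine synthetase (chromosome 6, 7675169 to 7693254), stood at 67.4, 90.6, 81.9 and 107, with SP11 1 between the 2 controls and a log2 fold change of 0.13 ± 0.14 (edgeR adjusted p = 0.735). Chac1, which degrades glutathione (chromosome 2, 119351229 to 119354381), was counted 51, 95, 112 and 102 times, or 5.29, 10.0, 9.11 and 8.41 CPM. Control 1 was low and the other 3 libraries were alike. Ddit4, an inhibitor of mTORC1 (chromosome 10, 59949669 to 59951834), stood at 15.9, 18.5, 15.8 and 21.2 with overlapping groups. The 95% intervals of the log2 fold changes from the fit's standard errors ran from -0.53 to 0.54 over the 10 members. With 1 library left out Chac1 reached 0.58, outside that range, so these intervals are no firm bound on what the libraries could miss.

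**Figure D2:**
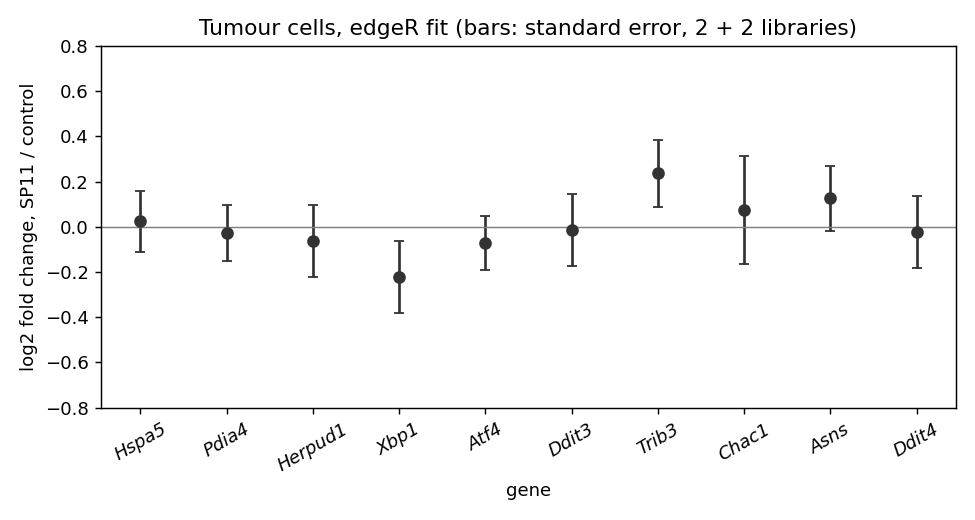
Fitted log2 fold change of SP11 over control in tumor cells for each member, with the standard error of the edgeR fit as bars (2 libraries per group). The points lie between -0.22 and 0.24 and none passed the threshold.

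Without TMM factors, which correct for composition, the median of all genes moved from -0.004 to 0.12 and the signs of Pdia4, Herpud1, Atf4, Ddit3 and Ddit4 turned positive, with 0 members called. The share of tumor cells with at least 1 UMI was also compared after each cell was thinned to 5000 UMIs. Hspa5 was found in 92.6% (95% exact Clopper-Pearson interval 90.6 to 94.3) and 91.2% (88.4 to 93.5) of control cells and in 95.8% (94.5 to 96.9) and 95.5% (93.4 to 97.0) of SP11 cells. Without thinning the mean share of Hspa5 was 95.1% in controls and 98.5% with SP11. Asns was found in 28.5% and 32.1% of control cells and 33.2% and 38.8% of SP11 cells, and Atf4 in 50.1%, 48.5%, 49.3% and 51.5% of cells. The shares of Pdia4 lay between 16.6% and 22.1%, those of Trib3 between 11.1% and 15.9%, and those of Ddit3 between 8.17% and 11.6%. Chac1 was found in 2.50% to 4.43% of cells. The two-sided exact permutation test over libraries cannot go below p = 0.33 with 2 against 2, so no difference in shares could pass. For Pdia4 the mean share with SP11 minus that of controls was 3.61 percentage points at 5000 UMIs, 1.22 at 10000 and 3.33 without thinning. At 10000 UMIs nearly every cell had an Hspa5 UMI (99.4% in controls and 99.8% with SP11), so that depth leaves little room for a difference. These intervals cover counting error only. The difference of Ddit3 had no stable sign, at 2.70 percentage points (SP11 minus control) before thinning, -0.934 at 5000 UMIs and 0.886 at 10000.

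Within a library, Hspa5 varied between cells more than counting alone gives, with a variance to mean ratio of 1.37 to 1.83 in thinned cells of the 4 libraries and a cell with 38 UMIs in SP11 1. The ratio of Atf4 was 1.06 to 1.20. For Pdia4, Herpud1, Xbp1, Ddit3, Trib3, Chac1, Asns and Ddit4 the ratio lay between 0.925 and 1.21. At so few UMIs per cell the ratio stays near 1 unless the variation between cells is large, so these genes cannot be compared with Hspa5 in this way.

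The other genes of the pathway were taken from 8 lists with 84 genes, of which 77 were tested in tumor cells. Of these, 1 rose and 0 fell in edgeR, where 2.31% of all 11588 genes tested were called. Slc7a5, the large neutral amino acid transporter of the plasma membrane, stood at 45.4 and 44.8 CPM in the controls and at 72.4 and 76.9 with SP11, a log2 fold change of 0.60 ± 0.12 (edgeR adjusted p = 0.0111). The call was lost in cells thinned to 5000 UMIs (0.48, adjusted p = 0.179) and without Control 1 (0.63, adjusted p = 0.0865) or Control 2 (0.57, adjusted p = 0.180), where the first value is the log2 fold change. The 6 sensors and eIF2 kinases were all tested and 0 passed. Ern1, which encodes IRE1, had a log2 fold change of 0.36 ± 0.18, Atf6 of 0.04 ± 0.14 and Eif2ak3, which encodes PERK, of -0.07 ± 0.22. The kinases Eif2ak1, Eif2ak2 and Eif2ak4 lay between -0.02 and 0.14. Of the 17 ER chaperones and folding enzymes tested, 0 passed and the median log2 fold change was -0.09. Of 14 tRNA synthetases tested 0 passed, with a median of 0.05, and of 14 genes of amino acid synthesis and transport tested Slc7a5 alone passed. None of the 6 ATF4-linked transcription factors, 11 genes of ER-associated degradation, 5 genes of eIF2 dephosphorylation and feedback and 4 secreted or death effectors tested passed in edgeR.

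In the monocyte and macrophage gate, 0 of the 4 members that passed the filter on low counts were called between SP11 and control in edgeR, with 0 unadjusted p-values under 0.05 and 0 calls in DESeq2, where 9.14% of the 2373 genes tested were called in edgeR. Those were 115 higher and 102 lower genes, and DESeq2 called 30 higher and 74 lower. Hspa5 stood at 885, 1110, 743 and 837 CPM, with a log2 fold change of -0.29 ± 0.23 (edgeR adjusted p = 0.487). These levels rest on 54, 67, 191 and 241 UMIs, and with 1 library left out the log2 fold change ranged from -0.54 to -0.05. The 5 erythroid markers took 262 and 298 CPM of the control sums and 80005 and 67663 of the SP11 sums, which lowers the CPM of other genes in the latter, and with hemoglobin left out the log2 fold change was -0.32. Xbp1 stood at 115, 182, 101 and 139 and Atf4 at 131, 149, 144 and 115, both with overlapping groups. Pdia4 rested on 6, 2, 17 and 6 UMIs and varied accordingly. Herpud1, Ddit3, Trib3, Chac1, Asns and Ddit4 had at most 9 UMIs in any of these sums, and a difference in them was not detectable at this depth. Of the 34 list genes tested, Slc7a11, the cystine transporter subunit, was lower with SP11 (38.9 and 34.7 CPM) than without (115 and 182). It had 7, 11, 10 and 10 UMIs in the 4 libraries, and the log2 fold change was -1.95 ± 0.51. Slc7a11 passed the filter on low counts through the control libraries alone, where its level was higher. Its edgeR adjusted p was 0.0155 with the filter and 0.0648 without it, so no fall with SP11 is concluded. Edem1, which takes misfolded glycoproteins to degradation, had 0 UMIs in both controls and 17 and 24 with SP11, at least 3.04-fold higher when the controls are set to 3 counts over the group. It passed the filter on low counts through the SP11 libraries alone, and the edgeR adjusted p was 0.011 with the filter, 0.0126 without it, and 0.0868 and 0.0833 when either control was left out. The call of Slc7a11 was lost without Control 2 (-1.62, edgeR adjusted p = 0.262), SP11 1 (-1.87, 0.607) or SP11 2 (-1.71, 0.663), with a gate of 8 marker UMIs (-1.86, 0.0685) and with no filter on low counts (-1.81, 0.0648), while its log2 fold change stayed below -1.6.

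The treatment effect in tumor cells was set against that in the monocyte and macrophage gate by an interaction term. None of the 10 members was called in edgeR (0 with an unadjusted p under 0.05), and 0.856% of 11442 genes were. For Hspa5 the difference between the effects was 0.10 ± 0.24 on the log2 scale and for Atf4 -0.20 ± 0.44. The median was -0.03 over the 10 members and -0.48 over all genes tested, so a value near 0 is not the typical value in this fit. The standard errors for Herpud1, Trib3, Chac1, Asns and Ddit4 exceeded 1, and the gate held few of their UMIs.

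Far more genes were called between cell classes than between treatment groups. In the monocyte and macrophage gate Xbp1 was higher than in tumor cells and Asns and Ddit4 were lower, and in the B cell gate Herpud1 was higher and Hspa5, Atf4 and Asns were lower. The sums of all classes with at least 20 cells were fitted in edgeR with the library as a block. The filter on low counts needed 1 sum with a high enough level. Genes low in tumor cells could thus enter the test through an immune sum alone, where their level was higher. Of the 8 members tested, 1 was higher and 2 were lower in the monocyte and macrophage gate, where 30.2% of 6713 genes were higher and 30.5% lower. In the B cell gate 1 was higher and 3 were lower, where 23.5% of genes were higher and 22.9% lower. Over all genes edgeR called 1577 higher and 1539 lower there, and DESeq2 1325 and 856. Calls between classes were thus common among all genes, and nothing is read from the number of members called.

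**Figure D3:**
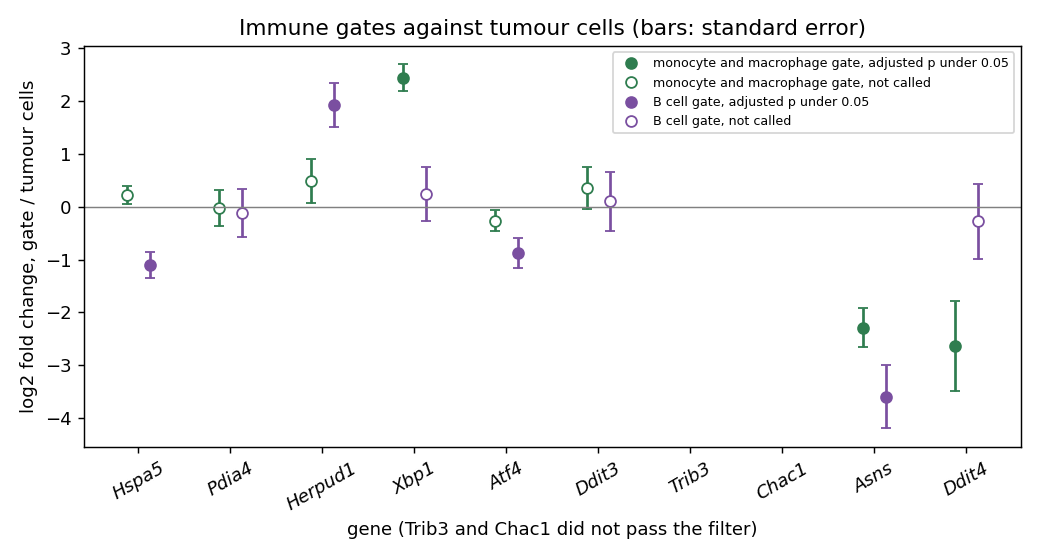
Fitted log2 fold change of the monocyte and macrophage gate (green) and of the B cell gate (purple) over tumor cells for 8 members, with the standard error as bars and filled points for adjusted p under 0.05. Xbp1 is the 1 member called higher in the monocyte and macrophage gate and Herpud1 the 1 called higher in the B cell gate, and Asns is lower in both.

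Xbp1 stood at 115, 182, 101 and 139 CPM in the monocyte and macrophage gate against 26.2, 20.3, 19.1 and 24.6 in the tumor cells of the same libraries, without overlap. The log2 fold change was 2.44 ± 0.26 (edgeR adjusted p = 1.86e-08), or 5.44-fold. Xbp1 passed the filter on low counts through the sums of this gate alone, where its level was higher. It kept its call with no filter, an alternative chosen after the data were seen. In the B cell gate it stood at 24.1 and 22.4 in SP11 1 and SP11 2, on 4 and 6 UMIs, and was not called (log2 fold change 0.25 ± 0.51, 95% interval -0.76 to 1.25).

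Asns was counted 13 times over the 4 libraries in the monocyte and macrophage gate, where 58.4 UMIs would have been counted at the tumor cells' level, and its log2 fold change was -2.29 ± 0.37 (edgeR adjusted p = 1.14e-05). In the B cell gate 3 UMIs were counted where the tumor level gives 40.9, or 7.33% of the tumor level (exact interval for counting error 1.51 to 21.5%), and the log2 fold change was -3.60 ± 0.60 (edgeR adjusted p = 2.96e-05). Trib3 did not pass the filter. Its 4 UMIs in the monocyte and macrophage gate were 18.8% of the tumor level (exact interval 5.11 to 48.2%) and its 1 UMI in the B cell gate 6.51% (0.165 to 36.4%). With no filter, an alternative chosen after the data were seen, Trib3 was lower in both, with log2 fold changes of -2.77 ± 0.62 and -4.07 ± 0.97 (edgeR adjusted p = 5.03e-05 and 0.000299). Chac1 had 2 UMIs and 1 UMI, and its interval reached 132% and 148% of the tumor level, so that no difference was detectable. Ddit4 had 2 UMIs in the monocyte and macrophage gate, with a log2 fold change of -2.63 ± 0.85 (edgeR adjusted p = 0.00984, but 0.0551 in DESeq2), and it could not be fitted without SP11 2. It passed the filter on low counts only through the neutrophil sum of SP11 2, where 2 UMIs gave 41.7 CPM.

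Hspa5 was at 373 and 213 CPM in the B cell gate of SP11 1 and SP11 2, against 732 and 738 in the tumor cells, a log2 fold change of -1.10 ± 0.24 (edgeR adjusted p = 0.000610). Herpud1 was at 42.2 and 78.5 against 15.7 and 21.2, a log2 fold change of 1.92 ± 0.41 (edgeR adjusted p = 0.000562). Herpud1 passed the filter on low counts through immune sums alone, those of this gate among them, and kept its call with no filter. Atf4 was at 78.3 and 67.3 against 145 and 159, a log2 fold change of -0.88 ± 0.29 (edgeR adjusted p = 0.0152, and 0.123 in DESeq2). The 6 plasma cell markers stood at 2361 and 2440 CPM in this gate against 17.1 and 20.1 in the tumor cells, with Sdc1 and Prg2 at 0 in the gate, and their part in these differences was not tested. Every B cell value lay outside the range of the tumor cells for these 3 genes. The B cell gate was tested in the 2 SP11 libraries only. Without SP11 2, Asns was the 1 member still called, and Hspa5 (-0.64), Herpud1 (1.52) and Atf4 (-0.73) lost their calls with the same direction. That run leaves 1 library in the B cell gate, which is assumed to vary like the other classes, and so does the run without SP11 1. Without SP11 1, Atf4 lost its call (edgeR adjusted p = 0.0824).

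Ddit3 and Pdia4 were not called between either gate and tumor cells, with log2 fold changes from -0.12 to 0.36 and standard errors of 0.35 to 0.56. For T cells and neutrophils 1 library, SP11 2, had at least 20 cells (84 and 47), so there is no test. Hspa5 stood at 218 and 146 CPM there and Atf4 at 80.4 and 62.5, on 19, 7, 7 and 3 UMIs. The 5 erythroid markers took 61286 CPM of the T cell sum and 313603 of the neutrophil sum. This lowers the CPM of other genes, most in the neutrophil sum, so these levels are not compared with each other or with tumor cells. Trib3 and Chac1 had 0 UMIs in both sums.

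Keratin transcripts were also counted in the immune gates. Krt8 plus Krt18 stood at 524, 364, 358 and 219 CPM in the monocyte and macrophage gate and at 379 and 220 in the B cell gate, against 4723, 2429, 3650 and 3231 in tumor cells. The 5 erythroid markers stood at 80005 and 67663 in the monocyte and macrophage gate and at 81376 and 69722 in the B cell gate of the SP11 libraries. In barcodes with 0 keratin UMIs, Xbp1 (2.49) and Asns (-2.77) in the monocyte and macrophage gate and Hspa5 (-1.51), Herpud1 (1.89), Atf4 (-0.76) and Asns (-4.56) in the B cell gate passed the test, as they did with hemoglobin left out, an alternative chosen after the data were seen. Of the list genes described next, Creld2 in the monocyte and macrophage gate and Os9 (edgeR adjusted p = 0.0795), Pmaip1 (0.105) and Jdp2 (0.0741) in the B cell gate lost their calls in those barcodes. Ddit4 could not be fitted in barcodes with 0 keratin UMIs.

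The other pathway genes are given by list, and each count is to be read against the shares of all genes called, which were 30.2% higher and 30.5% lower in the monocyte and macrophage gate and 23.5% higher and 22.9% lower in the B cell gate. No test between lists was run. All 14 tRNA synthetases of the list, several of which ATF4 is known to induce, were tested. Of these, 13 were lower in the monocyte and macrophage gate, led by Tars (-2.10), Hars (-1.94) and Lars (-1.90), and 11 were lower in the B cell gate, led by Nars (-2.97), Mars (-2.79) and Tars (-2.25). Mars lost its call in the B cell gate without SP11 2 (edgeR adjusted p = 0.125). The median log2 fold change of the list was -1.67 and -1.64, against -0.07 and -0.08 over all genes. Of 11 genes of amino acid synthesis and transport tested, 9 were lower in the monocyte and macrophage gate, led by the serine synthesis enzyme Phgdh (-3.16), Slc7a5 (-2.96) and the mitochondrial folate enzyme Mthfd2 (-2.20), and 1 was higher, Slc7a11. Slc7a11 had 0, 4, 15 and 5 UMIs in the tumor sums and 7, 11, 10 and 10 in the far smaller sums of the gate. It therefore passed the filter on low counts through immune sums alone, and it kept its call with no filter. Of the same genes, 6 were lower in the B cell gate. The serine synthesis enzyme Psat1 had 0 UMIs there where the tumor level gives 57.7, or 19.2-fold lower if set to 3 counts over the gate. The exact interval for counting error reached 6.39% of the tumor level. Of the genes lower in the B cell gate, Mthfd2 (-1.96) lost its call without SP11 2 (edgeR adjusted p = 0.0929).

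Of 16 ER chaperones and folding enzymes tested, 2 were higher and 3 lower in the monocyte and macrophage gate, with P4hb at 1.38 and Calr at 0.92, and Creld2 at -0.92, Ppib at -0.81 and Manf at -0.66. The B cell gate had 2 higher, Ero1lb (3.54) and Txndc5 (1.15), and 7 were lower, led by Ero1l (-2.51), Creld2 (-1.45) and Canx (-1.09). Several of these calls did not hold in edgeR with a library left out or in DESeq2, and Creld2 in the monocyte and macrophage gate was also lost in barcodes with 0 keratin UMIs (0.0697). Creld2 and Manf were lost in the monocyte and macrophage gate with DESeq2 (adjusted p = 0.0960 and 0.136) and without SP11 1, and Manf also without SP11 2. For B cells, Txndc5 was lost with DESeq2 (0.144), without TMM factors, without the filter on low counts and without SP11 1 or SP11 2, Creld2 with DESeq2 (0.0586) and without SP11 1 (0.176), and Ero1lb (0.0784) and Canx (0.193) without SP11 2.

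Of the sensors, Atf6 was higher in both gates (1.41 ± 0.27 and 2.46 ± 0.30), Eif2ak2 was higher in the monocyte and macrophage gate (1.90 ± 0.45), and Eif2ak3 was higher in the B cell gate (4.03 ± 0.57), at 48.2 and 108 CPM against 5.29 and 5.28 in the tumor cells of the same libraries. The call of Eif2ak3 was lost without SP11 2 (edgeR adjusted p = 0.143). Ern1, Eif2ak1 and Eif2ak4 did not pass the filter. Eif2ak3 passed it through immune sums and not through the tumor sums of the SP11 libraries, and it kept its call with no filter. Among ER-associated degradation genes, 4 of 9 tested were higher in the monocyte and macrophage gate, led by Edem1 (2.05), Sel1l (1.32) and Os9 (1.26), and in the B cell gate Os9 (1.21) was higher and Selenos (-0.70) lower. Without SP11 2 the calls of Edem1 (edgeR adjusted p = 0.244) and Sel1l (0.0918) were lost, Sel1l was also lost without SP11 1, and Os9 and Selenos in B cells were lost without either SP11 library. DESeq2 did not call Edem1 (0.0772) or Selenos (0.189). Os9 in the B cell gate also lost its call with no filter on low counts (0.84, edgeR adjusted p = 0.213). Of the ATF4-linked factors, Atf3 (5.85), Cebpb (2.89) and Nupr1 (0.74) were higher in the monocyte and macrophage gate, and Nupr1 was lost with no filter on low counts (edgeR adjusted p = 0.105). In the B cell gate Atf3 (3.74) was higher and 4 were lower, led by Jdp2 (-3.00), Cebpb (-2.63) and Nupr1 (-2.56), with 1 and 2 UMIs for Jdp2 and Cebpb, neither of which DESeq2 called (adjusted p = 0.113 and 0.0641). Cebpb was also lost without either SP11 library. With barcodes of several gates assigned to a gate, Jdp2 (-1.63, edgeR adjusted p = 0.112) and Cebpb (-0.82, 0.181) lost their calls in B cells. The eIF2 phosphatase subunits Ppp1r15a (1.98) and Ppp1r15b (1.51) were higher and Eif2s1 (-1.71) and Eif4ebp1 (-1.34) lower in the monocyte and macrophage gate, and the latter pair was also lower in the B cell gate (-1.37 and -2.50). Ppp1r15b was lost without SP11 2 (edgeR adjusted p = 0.0983), and Eif2s1 in B cells without SP11 1 (0.0621) and with DESeq2 (0.0524). Of the death effectors, Pmaip1 and Bcl2l11 (2.89) were higher in the monocyte and macrophage gate. Pmaip1 had 37 UMIs there and 19 in all tumor cells, so it entered the test through immune sums alone. It kept this call with no filter on low counts. Pmaip1 also passed in the B cell gate, on 3 UMIs, and Vegfa was lower there (-2.14). Pmaip1 lost that call without Control 1, SP11 1 or SP11 2 and with no filter on low counts (3.52, edgeR adjusted p = 0.066). Vegfa lost its call without SP11 2 (-1.16) and with DESeq2 (adjusted p = 0.0636).

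Whether the members vary together between tumor cells was asked by splitting the cells of each library at equal depth. Cells thinned to 5000 UMIs were divided by the presence of a Ddit3 UMI, with 85, 56, 133 and 47 cells with one in Control 1, Control 2, SP11 1 and SP11 2. The sums were compared in edgeR with the library as a block and Ddit3 left out. Atf4 was higher in the cells with a Ddit3 UMI in all 4 libraries, and the other 8 members were not called. In this split, 0.139% of 7930 genes were called.

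Atf4 rose from 143 to 207 CPM in Control 1, from 133 to 189 in Control 2, from 146 to 168 in SP11 1 and from 155 to 238 in SP11 2. The log2 fold change was 0.43 ± 0.10 (edgeR adjusted p = 0.0291). The direction was the same in every alternative run. The call was lost whenever 1 library was left out (log2 fold change 0.37 to 0.55, adjusted p 0.0857 to 0.578), with cells thinned to 10000 UMIs (0.23, adjusted p = 0.189), in a split by Chac1 (0.17, 0.953) and without called doublets and cells in an immune gate (0.25, 0.696). It was kept in a split by Trib3 (0.34, edgeR adjusted p = 0.0405). Cells with a Ddit3 UMI held 8.24, 5.36, 12.0 and 12.8% called doublets in the 4 libraries, against 5.32, 5.49, 6.58 and 8.52% of the other cells, and their depth before thinning was similar (median 11455, 18036, 9385 and 20963 UMIs against 11096, 17324, 9168 and 19843). Hspa5 was also higher in all 4 libraries, from 601 to 624, 688 to 839, 720 to 814 and 766 to 826 CPM, with a log2 fold change of 0.16 ± 0.05 that failed the correction (edgeR adjusted p = 0.513). Asns was higher in 3 of 4 libraries (0.30 ± 0.13, edgeR adjusted p = 0.864). Trib3 was higher in 2 of 4 and Chac1 in 1 of 4.

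**Figure D4:**
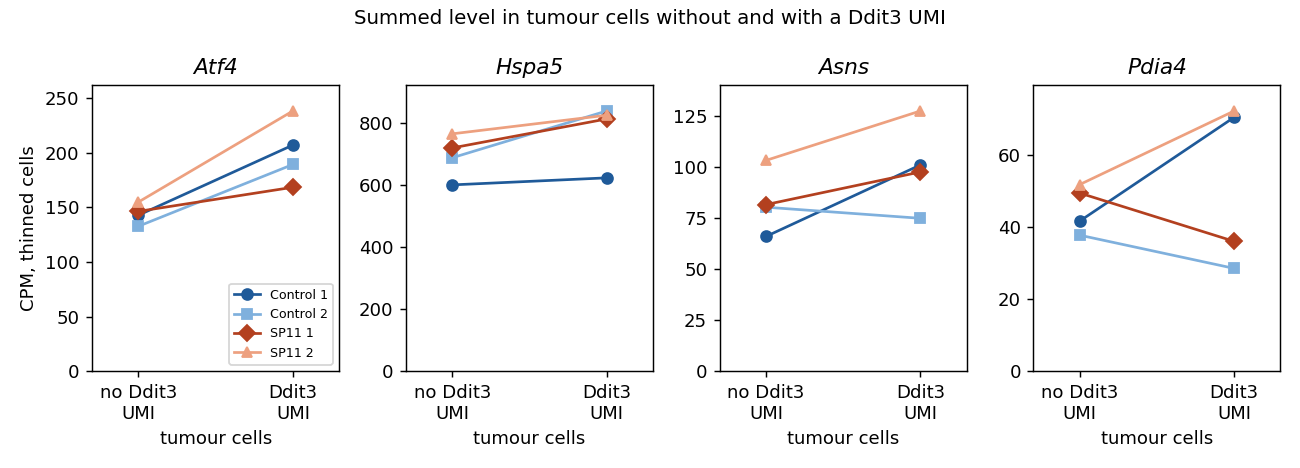
Level of Atf4, Hspa5, Asns and Pdia4, in CPM, in tumor cells without and with a Ddit3 UMI after thinning, with 1 line per library. The lines of Atf4 and Hspa5 rise in all 4 libraries, that of Asns in 3 and that of Pdia4 in 2.

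Of the 11 genes called in this split, 6 were histone genes, Hist1h2ae (0.46), Hist1h2ap (0.43), Hist1h1e (0.43), Hist1h1b (0.41), Hist2h2ac (0.40) and Hist1h4d (0.36), all higher in cells with a Ddit3 UMI in the fit, though in SP11 2 Hist1h2ap went from 127 to 102 CPM and Hist2h2ac from 89.8 to 76.6. Hist1h1b was higher in all 4 libraries, from 916 to 1301, 906 to 1293, 799 to 994 and 455 to 532 CPM (edgeR adjusted p = 1.11e-08), and kept its call when any 1 library was left out. In a split by Chac1 all 6 histone genes lost their calls with the same direction (edgeR adjusted p 0.0889 to 0.913). In a split by Trib3 only Hist1h2ap of the 6 did (0.117). Histone mRNA and Pclaf (0.44), a partner of the replication clamp, are made in S phase. Malat1, a nuclear RNA, was higher by 0.14, Wfdc17, a secreted protein of myeloid cells, by 1.47 with Control 1 in the opposite direction, and Krt8 was lower in all 4 libraries (-0.22). Without doublets and cells in an immune gate, Wfdc17 (0.33), Krt8 (-0.15), Pclaf (0.32), Malat1 (0.11), Hist1h4d (0.25) and Hist2h2ac (0.28) were no longer called. Pclaf lost its call with each library left out, Hist1h2ap and Hist2h2ac without Control 1, Control 2 or SP11 1, Malat1 without Control 1, SP11 1 or SP11 2, Hist1h4d and Krt8 without Control 1 or SP11 1, Wfdc17 without Control 2 or SP11 1, and Hist1h1e and Hist1h2ae without SP11 1.

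Cells above the 75th percentile of Hspa5 in their library gave another set. They numbered 168, 100, 216 and 133. None of the other 9 members passed in edgeR, where 1.71% of 7989 genes did, and 2 had an unadjusted p under 0.05. Pdia4 was higher in 3 of 4 libraries (0.30 ± 0.14, edgeR adjusted p = 0.300), and Herpud1 was lower in 3 of 4 (-0.51 ± 0.24, adjusted p = 0.336). Atf4 differed by -0.12 ± 0.08 and Asns by -0.04 ± 0.10. Chac1 was lower in all 4 libraries but rested on 4, 4, 8 and 0 UMIs in the high cells (-0.75 ± 0.39, edgeR adjusted p = 0.388). Of 70 list genes tested, the ER chaperone Hsp90b1, also called GRP94 (0.17 ± 0.04), the disulfide isomerase Pdia3 (0.21 ± 0.05) and the angiogenic factor Vegfa (0.45 ± 0.12) were higher, and Eif4ebp1, an inhibitor of cap-dependent translation, was lower (-0.16 ± 0.04). Vegfa lost its call with each library left out (edgeR adjusted p 0.0502 to 0.252) and at 10000 UMIs per cell. Pdia3 lost it without Control 1, Control 2 or SP11 2, Hsp90b1 without Control 1 (0.148) or SP11 1 (0.252), and Eif4ebp1 without Control 1, Control 2 or SP11 1.

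The 10 largest increases among the 137 genes called were Nrip1 (0.87), Mef2d (0.81), Ncaph (0.77), Vps54 (0.73), Arl8b (0.67), Kif20a (0.64), Rnf214 (0.62), Hsph1 (0.59), Slk (0.47) and Vegfa (0.45). Hsph1, a cytosolic heat shock protein, rose in all 4 libraries from 43.1 to 64.4, 54.0 to 82.1, 63.6 to 96.4 and 61.6 to 108 CPM (edgeR adjusted p = 0.00104), and kept its call with each library left out and at 10000 UMIs per cell. Ncaph and Kif20a act in mitosis. Of the 10, 8 lost their call at 10000 UMIs per cell, all but Hsph1 and Slk, and 9, all but Hsph1, lost it with at least 1 library left out. The 5 largest decreases were Smim13 (-0.45), Hist1h2ap (-0.43), Dctn3 (-0.42), Map4k1 (-0.42) and Sgf29 (-0.41). Smim13 (edgeR adjusted p = 0.126), Dctn3 (0.0760) and Sgf29 (0.708) lost their call at 10000 UMIs per cell, Map4k1 with each library left out, and Smim13 and Sgf29 without Control 1, Control 2 or SP11 1. Hist1h2ap, higher in cells with a Ddit3 UMI, fell here from 124 to 111, 310 to 218, 129 to 104 and 134 to 96.4. Of 35 histone genes tested, 5 were lower and 0 higher in this split. The 2 splits shared 4 called genes, 36.4% of the 11 and 2.92% of the 137. Hist1h1b, Hist1h2ae and Hist1h2ap had opposite directions and Malat1 the same.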

How the data were processed

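The authors deposited filtered 10x matrices of 4 libraries, whose values are raw UMI counts per gene and cell. Per the labels, the submitters' processing notes name Cell Ranger 7.1.0 and the mouse build mm10 (the study's text names a human build). Nothing was normalized before deposit. Barcodes with at least 200 genes and at most 10% mitochondrial UMIs were kept, which left 916, 566, 1831 and 1091 of 977, 595, 2277 and 1483. Barcodes with at least 5 Krt8 and Krt18 UMIs were called tumor cells. The others were gated by marker UMIs (4 for monocytes and macrophages, 2 for B cells, T cells and dendritic cells, 10 for neutrophils), and those that met several gates (33 and 27 in the SP11 libraries) or none were left out of the classes.

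Counts were summed per library and class for classes of at least 20 cells, filtered with filterByExpr, scaled by TMM and tested with edgeR 4.0.16 (glmQLFit and glmQLFTest, R 4.3.3), with Benjamini-Hochberg adjustment over all genes and a threshold of 0.05. DESeq2 1.42.0 was an alternative. ± gives the standard error of the fit, approximated from the fold change and its test statistic. CPM are UMIs scaled to a total of 1000000 over the same cells. Shares and splits used cells thinned to 5000 UMIs without replacement, which left 799, 511, 1151 and 575 tumor cells, and shares were compared by an exact permutation test (scipy 1.17.1, Python 3.11.15). Classes were compared, and splits tested, with the library as a block. Doublets stayed in the main sums and were left out in an alternative as the top 5% of Scrublet scores (scanpy 1.11.5), since its automatic threshold failed in 1 library. The scripts were tested on simulated counts. Sequences and positions came from RefSeq and GENCODE for GRCm38. The pathway lists cover ER sensors and eIF2 kinases, chaperones, degradation, eIF2 feedback, transcription factors, amino acids, tRNA synthetases and secreted or death effectors. Named genes are all 10 members, the 6 sensors and kinases, up to 3 called genes per list and direction with the largest change, and in each split the 10 largest increases and 5 largest decreases called. The members and lists were chosen with earlier results of these data known.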

Additional observations from a re-analysis of the deposited data

How the results depend on the processing

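No member was called between SP11 and control in tumor cells or in the monocyte and macrophage gate in any alternative run. Between classes, the directions of Xbp1 and Asns in monocytes and macrophages and of Hspa5, Herpud1, Atf4 and Asns in B cells held in all alternatives run. Of the values recomputed, 168 lost their call, 89 turned direction, 42 counts of called genes or members moved by over 1.5 times, and the other 1140 did none of these. The number of genes called in tumor cells (268) was 149 with DESeq2, 1305 with all kept barcodes, 94 with cells thinned to 5000 UMIs, 506 without TMM factors, 176 without called doublets, 172 without cells in an immune gate, and 78 (without Control 2) to 425 (without SP11 2) with 1 library left out. With the replicate number as a block, the replicate block fit called 1038 genes and 0 members. Same-numbered libraries deviated together with r = 0.125 over 11588 genes, from 2 pairs, so the numbers were not taken as a pairing. In the monocyte and macrophage gate 217 genes became 104 with DESeq2, 137 with at least 500 genes per cell, 66 with a gate of 8 UMIs, 123 without TMM factors and 104 to 144 with 1 library left out. Genes called between classes (3116 for B cells, 4073 for monocytes and macrophages) numbered 1029 to 3176 and 2561 to 3992 with 1 library left out, lowest without SP11 2, and members called in B cells 1 to 4. The interaction count (98) was 60 in barcodes with 0 keratin UMIs and 0 to 62 with 1 library left out. The Ddit3 split (11 genes, 1 member) gave 30 and 0 at 10000 UMIs per cell, 6 and 0 split by Chac1, 6 and 0 without doublets and cells in an immune gate, and 1 to 13 and 0 to 0 with 1 library left out. The Hspa5 split (137) gave 369 at 10000 UMIs and 27 to 113 with 1 library left out. The cause was not tested.

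Log2 fold changes that turned direction, none of them called in the main fit except Mef2d and Wfdc17, were as follows. In tumor cells between SP11 and control these were Hspa5 (-0.030) and Herpud1 (0.042) with all kept barcodes, Pdia4 (0.16) and Ddit4 (0.023) in thinned cells, Pdia4 (0.10), Herpud1 (0.070), Atf4 (0.057), Ddit3 (0.11) and Ddit4 (0.11) without TMM factors, Ddit3 (0.020) without doublets, and Ddit3 (0.014) and Ddit4 (0.0047) without cells in an immune gate. With 1 library left out the ranges were -0.061 to 0.11 for Hspa5, -0.097 to 0.042 for Pdia4, -0.23 to 0.093 for Herpud1, -0.23 to 0.18 for Ddit3, -0.30 to 0.58 for Chac1, -0.055 to 0.33 for Asns and -0.19 to 0.13 for Ddit4. The share of cells turned at 10000 UMIs for Atf4 (-0.941 percentage points) and Ddit3 (0.886) and without thinning for Xbp1 (0.503) and Ddit3 (2.70), and ranged with 1 library left out from -1.42 to 2.23 for Herpud1, -3.48 to 0.523 for Xbp1, -2.62 to 0.757 for Ddit3, -1.55 to 3.16 for Trib3, -0.177 to 1.63 for Chac1 and -0.0364 to 1.54 for Ddit4. In the monocyte and macrophage gate, Atf4 turned with at least 500 genes (0.017), a gate of 8 UMIs (0.40) and no filter (0.061) and Xbp1 with a gate of 8 UMIs (0.15), and Pdia4 ranged from -1.19 to 0.31 and Xbp1 from -0.64 to 0.11 with 1 library left out. Between B cells and tumor cells Pdia4 turned with DESeq2 (0.0006) and 0 keratin UMIs (0.17), Ddit3 without TMM factors (-0.10, where the median of all genes moved from -0.08 to -0.28) and no filter (-0.26) and Xbp1 with no filter (-0.13), and the ranges were -0.43 to 0.13 for Pdia4, -0.19 to 0.47 for Ddit3 and -0.35 to 0.088 for Ddit4. Between monocytes and macrophages and tumor cells Pdia4 turned with DESeq2 (0.12) and without TMM factors (0.031), with a range from -0.37 to 0.51, and Hspa5 with no filter (-0.081). The interaction turned for Hspa5 with 0 keratin UMIs (-0.52) and ranged from -0.53 to 1.46 for Pdia4, -0.74 to 0.39 for Xbp1, -0.42 to 0.081 for Atf4, -0.96 to 0.93 for Ddit3, -7.44 to 1.41 for Trib3, -9.43 to 0.44 for Asns and -6.25 to 8.29 for Ddit4, the last 3 from sums with 0 UMIs. In the Ddit3 split the turned values were Pdia4 (-0.14), Xbp1 (-0.005) and Ddit4 (0.093) at 10000 UMIs, Hspa5 (-0.31), Asns (-0.12), Ddit4 (0.50) and Wfdc17 (-1.57) split by Chac1, Herpud1 (-0.093), Xbp1 (-0.073), Ddit4 (0.27) and Wfdc17 (-1.43) split by Trib3, and Pdia4 (-0.20), Xbp1 (-0.31) and Ddit4 (0.44) without doublets and cells in an immune gate. With 1 library left out it ranged from -0.18 to 0.44 for Pdia4, -0.33 to 0.22 for Herpud1, -0.083 to 0.27 for Trib3 and -0.44 to 0.28 for Chac1. In the Hspa5 split Trib3 (-0.13), Ddit4 (-0.085) and Mef2d (-0.019) turned at 10000 UMIs, and the ranges were -0.16 to 0.10 for Trib3 and -0.31 to 0.21 for Ddit4. Depth limits the immune gates, where most members had fewer than 10 UMIs per sum.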
